A study of Mus musculus with 9 samples.

Results

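The Cyp4a and Cyp4f fatty acid hydroxylases are cytochrome P450 enzymes of the endoplasmic reticulum, and 10 mouse genes of this kind were followed in liver RNA: Cyp4a10, Cyp4a12a, Cyp4a12b, Cyp4a14, Cyp4a31, Cyp4a32, Cyp4f13, Cyp4f14, Cyp4f15 and Cyp4v3. They were taken by symbol from a table of gene counts, where each of the 10 was found among 18954 genes, and each passed the count filter that left 14004 genes for testing. The 5 GSDMD-NT Alb-cre livers, called Alb-cre livers below, came from the GSDMD-NTki/wt & Alb-creki/wt genotype labelled as treatment at day 42, and the 4 control livers from the GSDMD-NTki/wt genotype at the same day. All 9 thus had 1 knock-in copy coding for the pore-forming N-terminal fragment of gasdermin D, and the Alb-cre livers in addition had Cre recombinase under the albumin promoter, which is active in hepatocytes. The series describes the cross as a model of liver fibrosis after cell death induced with doxycycline, and the sample labels name no doxycycline. No liver had Alb-cre without the knock-in, and what Cre itself does cannot be told apart from what the gasdermin fragment does. The labels do not say that livers came from separate animals, nor give their age, sex, feeding state or collection time, and p-values therefore rest on a spread among samples that may be technical.

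These enzymes place a hydroxyl group at or near the methyl end of a fatty acid, the omega position. Alcohol and aldehyde dehydrogenases then turn the product into a dicarboxylic acid, which peroxisomes shorten. In mouse liver, Cyp4a10 and Cyp4a14 are classic targets of PPARalpha, the nuclear receptor that fatty acids, fasting and fibrate drugs activate, while Cyp4a12a is the male-predominant enzyme that makes the vasoactive lipid 20-HETE from arachidonic acid. Cyp4f enzymes act on leukotrienes and on long-chain fatty acids, and Cyp4v3 is the mouse counterpart of human CYP4V2, a fatty acid hydroxylase mutated in Bietti crystalline dystrophy.

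Totals were 13361093 to 16823506 counts per liver, and between 17415 and 17775 genes were detected. The hepatocyte markers Alb, Apoa1, Apob, Ttr, Serpina1c, Cyp3a11, Hnf4a and Tat were all counted, and their summed level was 55300 to 71100 CPM (counts scaled to library size) in Alb-cre livers and 72100 to 88700 CPM in controls. Kidney also makes Cyp4a and Cyp4b enzymes, and 8 of 9 kidney markers, Umod, Slc34a1 and Kap among them, had no row in the table, while Lrp2 measured 2.26 to 5.71 CPM in Alb-cre livers and 0.598 to 2.93 CPM in controls. Macrophage markers summed to 230 to 293 CPM in Alb-cre livers and 170 to 309 CPM in controls, and neutrophil markers to 3.92 to 11.8 CPM in Alb-cre livers and 2.19 to 4.96 CPM in controls. In whole liver, fewer hepatocytes and less RNA per hepatocyte cannot be told apart. Levels below are TMM-scaled CPM, given as mean ± SD over 5 Alb-cre livers or 4 controls. Log2 fold changes (± SE) are positive where Alb-cre livers were higher. The test was the quasi-likelihood test of edgeR, with p-values adjusted after Benjamini and Hochberg over all 14004 genes, and a gene was called at an adjusted p under 0.05. The hepatocyte markers did not all go 1 way. Of the 8, Tat was called higher and Ttr lower, a share of 25% beside 18.3% of all tested genes. Alb made up most of their sum and was not called (adjusted p = 0.2705 by edgeR). It measured 43040 ± 5751 CPM in Alb-cre livers and 54200 ± 6074 CPM in controls.

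Several members are so alike that their reads can be mixed. The Cyp4a genes lie in 1 cluster on mouse chromosome 4, where Cyp4a12a, Cyp4a12b, Cyp4a14, Cyp4a10, Cyp4a31 and Cyp4a32 follow in that order, with other Cyp4 genes and pseudogenes between them. Cyp4f15, Cyp4f14 and Cyp4f13 are neighbours on chromosome 17, and Cyp4v3 is the only member on chromosome 8. Aligned transcripts of Cyp4a12a and Cyp4a12b were 98.3% identical, and 25.6% of the 150-base windows of Cyp4a12a, the length of 1 read, occurred letter for letter in Cyp4a12b. Cyp4a10 and Cyp4a32 were 97.2% identical, yet only 2.45% of the windows of Cyp4a10 occurred in Cyp4a32. For Cyp4a14, Cyp4v3 and the 3 Cyp4f genes, 0% of windows were shared with any other member. Reads of Cyp4a12a and Cyp4a12b are therefore uncertain in their split, and those of Cyp4a10, Cyp4a31 and Cyp4a32 slightly so. Only the longest coding transcript of each member was compared. Windows shared with other Cyp4 genes or pseudogenes of these clusters were not examined.

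RefSeq promoter windows (build GRCm38.p6, not the build of the counts) were at hand for 5 members, Cyp4a32, Cyp4f13, Cyp4f14, Cyp4f15 and Cyp4v3. The 120 bases before the start site are shown 5′ to 3′ for the 3 Cyp4f genes, of which Cyp4f13 and Cyp4f15 were lower in Alb-cre livers, and for Cyp4a32 of the other cluster. Capitals mark CCAAT as read on the opposite strand, a common promoter element.
Cyp4f13, chr17:32947362-32947481, minus strand: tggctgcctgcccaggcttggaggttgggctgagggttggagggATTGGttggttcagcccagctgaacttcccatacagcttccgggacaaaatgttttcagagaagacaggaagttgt
Cyp4f15, chr17:32685539-32685658, plus strand: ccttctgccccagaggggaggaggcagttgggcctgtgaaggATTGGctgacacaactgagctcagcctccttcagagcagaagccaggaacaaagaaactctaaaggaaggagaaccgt
Cyp4f14, chr17:32917357-32917476, minus strand: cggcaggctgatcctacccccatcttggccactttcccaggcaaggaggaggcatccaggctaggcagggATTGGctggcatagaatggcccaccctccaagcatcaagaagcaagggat
Cyp4a32, chr4:115600818-115600937, plus strand: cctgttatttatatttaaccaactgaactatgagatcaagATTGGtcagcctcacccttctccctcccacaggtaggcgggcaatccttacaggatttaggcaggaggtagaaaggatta
The first base of this element lay at position -76 in Cyp4f13, -78 in Cyp4f15, -50 in Cyp4f14 and -80 in Cyp4a32, counted back from the start site. For Cyp4f14, which has 4 start sites in RefSeq, the window of the most upstream site is shown. Within the full 300-base windows CCAAT was found on either strand in 4 of the 5 member promoters and in 37.4% of all 32817 windows. Among the 4 are the 3 Cyp4f genes, related neighbours whose windows share runs of 11 to 14 bases by pair. They do not count as independent promoters. The nuclear receptor half-site AGGTCA was in 0 of the 5 and in 16.3% of all windows. Its direct repeat with 1 spacer base, the form PPARalpha binds with RXR, was in 0 of the 5 and in 0.0396% of all windows, both strands searched. A STAT element, TTCNNNGAA, was in Cyp4f13 alone of the 5 and in 8.29% of all windows. A match describes these letters only, and a missing match says nothing about sites outside these windows or sites spelled differently. The exact direct repeat was so rare over all windows that its absence from the 5 tells nothing about the members. The PPARalpha targets Cyp4a10 and Cyp4a14 had no window to search.

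The 2 called differences were in the Cyp4f genes. Cyp4f15 and Cyp4f13 were lower in Alb-cre livers, at 0.587 and 0.728 of the control level, and in both genes each Alb-cre liver lay below each control. Of the 10 members 0 were higher and 2 were lower, beside 9.25% of all tested genes that were higher, 9.07% that were lower and 18.3% called in either direction, so the members' share of 20% was near that of genes at large. Groups that did not overlap were seen in the same 2 members, and in 18.5% of all tested genes. Among the 10, the fitted change was below 0 in 9, beside 48.8% of all tested genes. The median log2 fold change was -0.37 beside 0.01 over all tested genes. Several members varied together across the same livers, so these changes are not independent of each other. With 1 liver left out, the sign could change for Cyp4a14 (up to 0.602), Cyp4v3 (up to 0.074) and Cyp4a12a (down to -0.035).

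Cyp4f15, a hydroxylase of the leukotriene-oxidising subfamily, measured 133, 88.9, 196, 177 and 146 CPM in Alb-cre livers 1 to 5, against 229, 273, 214 and 296 CPM in controls 1 to 4. The lowest value was that of Alb-cre 2 and the highest of the group, that of liver 3, still lay under control 3. The means were 148 ± 41.6 CPM in Alb-cre livers and 253 ± 37.9 CPM in controls (log2 fold change -0.77 ± 0.20, adjusted p = 0.0242 by edgeR). Cyp4f13 measured 86.3, 79.0, 90.5, 82.7 and 95.4 CPM in Alb-cre livers 1 to 5, against 114, 132, 102 and 128 CPM in controls 1 to 4. Among Alb-cre livers this was the least variable member, its highest value being 1.21 times the lowest. Its means were 86.8 ± 6.43 CPM in Alb-cre livers and 119 ± 13.5 CPM in controls (log2 fold change -0.46 ± 0.11, adjusted p = 0.0191 by edgeR).

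These calls rested on few livers. The Cyp4f13 call was lost without control 2 (adjusted p = 0.0667) or Alb-cre 1 (adjusted p = 0.0507), and that of Cyp4f15 without control 2 (adjusted p = 0.0673), control 4 (adjusted p = 0.0757) or Alb-cre 1 (adjusted p = 0.0593). Lower members thus numbered 0 without control 2 or Alb-cre 1 and 1 without control 4. It was 3 without control 1, where Cyp4a31 was also called (log2 fold change -0.95 ± 0.27, adjusted p = 0.0399 by edgeR), and 3 without Alb-cre 3, where Cyp4a32 was also called (log2 fold change -1.01 ± 0.32, adjusted p = 0.0478 by edgeR).

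Cyp4f14, the most abundant of the 3 Cyp4f members per length of transcript, measured 246, 177, 269, 266 and 246 CPM in Alb-cre livers 1 to 5, against 309, 290, 286 and 239 CPM in controls 1 to 4. The groups overlapped through control 4, and the log2 fold change of -0.22 ± 0.14 (adjusted p = 0.292 by edgeR, 95% interval -0.54 to 0.09) did not pass the test. Added up, the 3 Cyp4f genes came to 345 to 556 CPM in Alb-cre livers and 603 to 695 CPM in controls, with no overlap. The mean of this sum was 476 ± 81.1 CPM in Alb-cre livers and 653 ± 38.1 CPM in controls, a ratio of 0.729. The sum includes the called genes Cyp4f13 and Cyp4f15, so its separation is not a further result and says nothing about Cyp4f14.

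**Figure D1:**
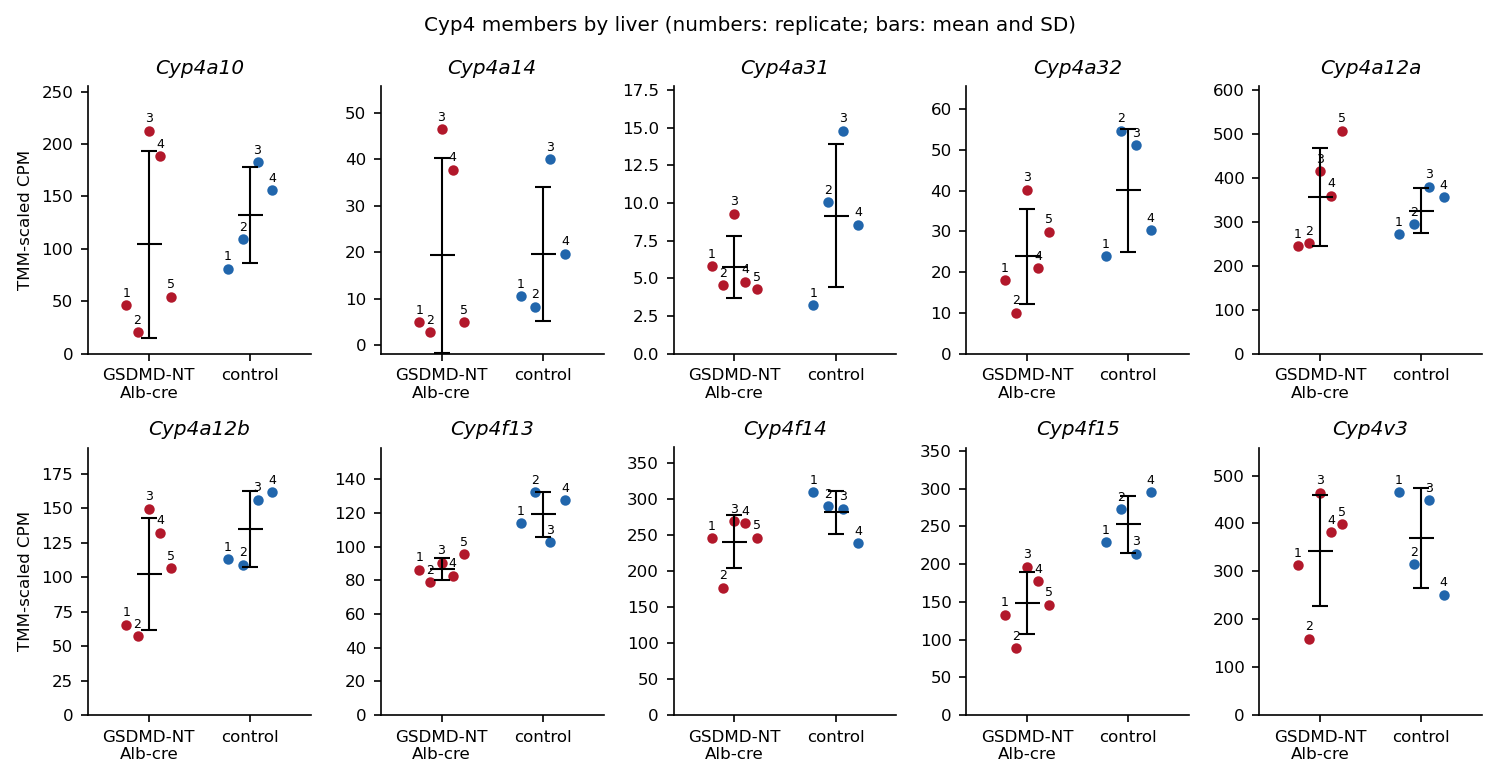
TMM-scaled CPM of each of the 10 members in 5 Alb-cre livers (red) and 4 controls (blue), with replicate numbers at the points and bars for mean and SD; each panel has its own axis. Cyp4f13 and Cyp4f15 show separate groups, while in Cyp4a10 and Cyp4a14 Alb-cre livers 3 and 4 stand far above livers 1, 2 and 5.

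The Cyp4a genes known as PPARalpha targets did not differ between the groups by the test, and they varied widely from liver to liver. Cyp4a14 measured 4.84, 2.73, 46.5, 37.8 and 4.92 CPM in Alb-cre livers 1 to 5, against 10.5, 8.26, 40.1 and 19.7 CPM in controls 1 to 4. Livers 3 and 4 of the Alb-cre group were thus at the level of the highest control or near it, and livers 1, 2 and 5 were below every control. The means of 19.4 ± 21.1 CPM in Alb-cre livers and 19.6 ± 14.5 CPM in controls were almost equal (log2 fold change -0.01 ± 0.77, adjusted p = 0.995 by edgeR), but the 95% interval of -1.67 to 1.66 was wide. Counting error was not the limit, since Cyp4a14 had 41 to 807 counts in Alb-cre livers and 128 to 547 counts in controls.

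Cyp4a10 showed a like split among Alb-cre livers. It measured 45.9, 20.4, 213, 189 and 54.1 CPM in Alb-cre livers 1 to 5, against 80.9, 109, 182 and 156 CPM in controls 1 to 4. For this gene livers 3 and 4 of the Alb-cre group exceeded every control, and livers 1, 2 and 5 lay below every control. Its means were 104 ± 89.3 CPM in Alb-cre livers and 132 ± 45.7 CPM in controls (log2 fold change -0.34 ± 0.56, adjusted p = 0.697 by edgeR, 95% interval -1.55 to 0.87). From the lowest to the highest Alb-cre liver Cyp4a14 spanned 17.1-fold and Cyp4a10 10.5-fold, against 4.85-fold and 2.26-fold among controls. The SD of log2 CPM over the 5 Alb-cre livers was 1.86 for Cyp4a14 and 1.44 for Cyp4a10, beside a median of 0.26 over all tested genes, and these SDs stood at the 99.8 and 99.4 percentile of tested genes. Among controls the SDs were 1.01 and 0.53. Depending on which liver was left out, the log2 fold change of Cyp4a14 ran from -0.61, without Alb-cre 3, to 0.60, without control 3.

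Cyp4a31 and Cyp4a32, near copies of Cyp4a10, had lower means in Alb-cre livers and did not pass the test. Cyp4a32 measured 18.0, 10.1, 40.2, 21.0 and 29.96 CPM in Alb-cre livers 1 to 5, against 24.0, 54.7, 51.2 and 30.3 CPM in controls 1 to 4 (log2 fold change -0.75 ± 0.35, adjusted p = 0.149 by edgeR). For Cyp4a32 the groups overlapped, with controls 1 and 4 inside the range of Alb-cre livers. Cyp4a31, the least abundant member per length, measured 5.80, 4.53, 9.29, 4.78 and 4.25 CPM in Alb-cre livers 1 to 5, against 3.23, 10.1, 14.8 and 8.55 CPM in controls 1 to 4 (log2 fold change -0.67 ± 0.36, adjusted p = 0.209 by edgeR). Here control 1 was the lowest of all 9 livers. Summing Cyp4a10, Cyp4a31 and Cyp4a32, so that the split of counted reads among them does not matter, gave 134 ± 98.7 CPM in Alb-cre livers and 181 ± 58.0 CPM in controls, with overlapping groups. Shared reads left out of the counts, if any, would be missing from this sum too.

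Cyp4a12a, the male-predominant arachidonate hydroxylase, was the most abundant member per length of transcript and did not differ by the test. It measured 244, 251, 415, 359 and 507 CPM in Alb-cre livers 1 to 5, against 271, 294, 379 and 356 CPM in controls 1 to 4 (log2 fold change 0.13 ± 0.22, adjusted p = 0.708 by edgeR, 95% interval -0.34 to 0.60). The Alb-cre livers reached both below and above the range of controls, with liver 5 highest. Cyp4a12b measured 65.7, 57.2, 149.8, 132 and 107 CPM in Alb-cre livers 1 to 5, against 113, 109, 156 and 162 CPM in controls 1 to 4 (log2 fold change -0.40 ± 0.27, adjusted p = 0.305 by edgeR). The sum of Cyp4a12a and Cyp4a12b, which does not depend on how counted shared reads were split, was 458 ± 143 CPM in Alb-cre livers and 460 ± 77.4 CPM in controls.

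Cyp4v3 measured 313, 159, 464, 382 and 398 CPM in Alb-cre livers 1 to 5, against 465, 314, 448 and 251 CPM in controls 1 to 4. Apart from Alb-cre 2, the lowest of all 9, the values lay in the same range in both groups (log2 fold change -0.11 ± 0.28, adjusted p = 0.811 by edgeR, 95% interval -0.71 to 0.49).

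**Figure D2:**
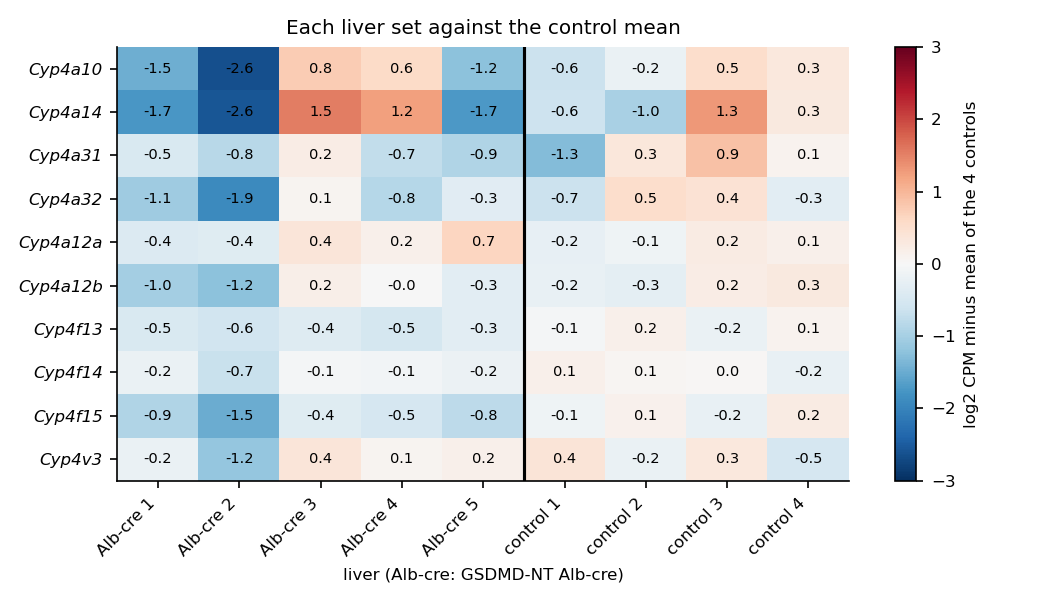
Log2 CPM of each member in each liver minus the mean of the 4 controls, with Alb-cre livers left of the black line and controls right of it. All 10 members were below the control mean in Alb-cre 2 and 1, and in livers 3 and 4 Cyp4a10 and Cyp4a14 were above it.

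Set side by side per length of transcript, the order of levels was much alike in both groups. In CPM per kilobase, Cyp4a12a led with 147 ± 46.1 in Alb-cre livers and 134 ± 21 in controls, followed by Cyp4f14 with 108 ± 16.8 in Alb-cre livers and 127 ± 13.5 in controls. Cyp4f15 was the fourth member in Alb-cre livers, at 68.5 ± 19.2, behind Cyp4v3 at 90.2 ± 30.4, and the third in controls, at 117 ± 17.5, ahead of Cyp4v3 at 97.1 ± 27.3. Then came Cyp4f13 and Cyp4a10, both at 49.5 in Alb-cre livers and at 68 and 62.7 in controls, and Cyp4a12b with 42.7 in Alb-cre livers and 56.5 in controls. Cyp4a32, Cyp4a14 and Cyp4a31 were the 3 lowest members, at 15.6, 7.76 and 2.28 in Alb-cre livers and at 26.2, 7.86 and 3.65 in controls. Some neighbours in this order lay within each other's SD, such as Cyp4a12a, Cyp4f14 and Cyp4f15 in controls. Others lay further apart than their SDs, such as Cyp4a12b and Cyp4a32 in both groups and Cyp4v3 and Cyp4f13 in controls. Together the 10 genes took 0.0759 to 0.197% of the counts in Alb-cre livers and 0.154 to 0.192% in controls.

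Whether 2 members changed unequally was tested for Cyp4a14, Cyp4a12a and Cyp4f14, on their log2 ratio within each liver, which needs no scaling. Cyp4a14 over Cyp4a12a averaged -5.05 ± 1.73 in Alb-cre livers and -4.31 ± 0.82 in controls (difference -0.73, exact two-sided permutation p = 0.46 over all splits of the livers). Cyp4a14 over Cyp4f14 averaged -4.53 ± 1.70 in Alb-cre livers and -4.11 ± 1.08 in controls (exact permutation p = 0.651). Cyp4a12a over Cyp4f14 averaged 0.52 ± 0.38 in Alb-cre livers and 0.20 ± 0.35 in controls (exact permutation p = 0.222). Adjusted over the 3 ratios, p was 0.651 for each, so no unequal change among these 3 members was detectable with 5 and 4 livers. The called members Cyp4f13 and Cyp4f15 were in none of these ratios, and whether they changed unlike the others was not tested.

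**Figure D3:**
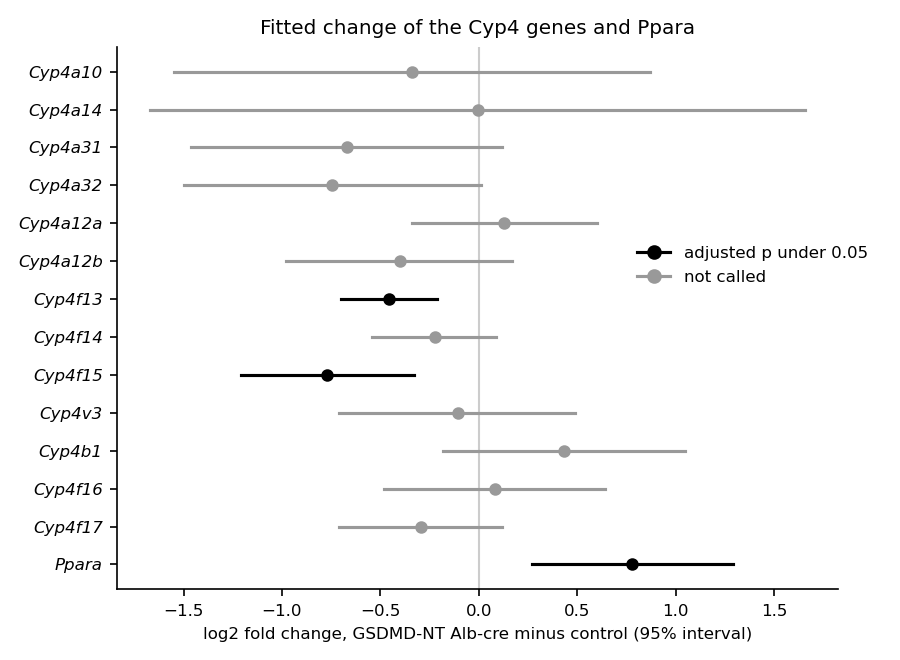
Fitted log2 fold change with its 95% interval for the 10 members, 3 further Cyp4 genes and Ppara, with called genes in black. Cyp4f13 and Cyp4f15 lie below 0 and Ppara above it, and the intervals of Cyp4a10 and Cyp4a14 are the widest.

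Members also differed in how they moved together. With group means removed, Pearson's r of log2 CPM over the 9 livers was 0.96 between Cyp4a10 and Cyp4a14, 0.92 between Cyp4a10 and Cyp4a12b and 0.94 between Cyp4f14 and Cyp4v3. For Cyp4a12a and Cyp4a12b, which can share reads, it was 0.82, and Cyp4f13 with Cyp4a14 gave -0.16. These values describe the same 9 libraries and carry no test, and in Cyp4a10 and Cyp4a14 the widest gap was that between Alb-cre livers 3 and 4 and livers 1, 2 and 5. Cyp4f14 and Cyp4v3 were both lowest of the 9 livers in Alb-cre 2, at 177 and 159 CPM. Neither their r nor those of the genes most like Cyp4f14 were computed without that liver. Of 11590 other genes above a mean log2 CPM of 1, those most like Cyp4a14 over the 9 livers were Gm46430 (r 0.949), the Schlafen gene Slfn5 (r 0.943), the matrix protein gene Dpt (r 0.924) and the zinc finger genes Zfp738 (r 0.923) and Zfp874b (r 0.914). Most like Cyp4a12a were Fam124a (r 0.939), Sbno1 (r 0.893), the palmitoyltransferase gene Zdhhc21 (r 0.886), Zbtb43 (r 0.874) and the interferon-induced gene Ifit2 (r 0.873). Cyp4f14 had closer companions, among them Gm4756 (r 0.983), Mpc1-ps (r 0.976), the pyrimidine-breakdown gene Dpys (r 0.973) and the amidoxime reductase gene Mtarc1 (r 0.971). With group means removed, r was 0.915 to 0.954 for the genes named with Cyp4a14, 0.875 to 0.942 for those with Cyp4a12a and 0.962 to 0.988 for those with Cyp4f14.

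The acute phase genes, which hepatocytes switch on under inflammatory cytokines, also differed much among Alb-cre livers. Of 28 listed and tested acute phase genes 22 were higher and 0 lower, a share of 78.6% beside 18.3% of all tested genes. The number higher was 12 without control 2 or 4. Averaged over the list, log2 CPM stood above the control mean by 2.03 in Alb-cre 1, 3.63 in 2, 0.17 in 3, 1.45 in 4 and 2.60 in 5, while controls lay between -0.25 and 0.33. Livers 1, 2 and 5, with the highest acute phase levels, were those with the lowest Cyp4a10 and Cyp4a14. Liver 2 also had the lowest Cyp4f13, Cyp4f14, Cyp4f15 and Cyp4v3 of the 9 livers. Not every member followed this order. Alb-cre 5, at 2.60, had the highest Cyp4a12a of the 9 livers, 507 CPM, and the highest Cyp4f13 of its group, 95.4 CPM. Cyp4a32 and Cyp4v3 were also higher in Alb-cre 5 (29.96 and 398 CPM) than in Alb-cre 4 (21.0 and 382 CPM). In Alb-cre 3 the mean over the list was within the range of controls, although 11 of the 22 higher genes were above every control there, and Cyp4f13 and Cyp4f15 were below every control. Saa4, a serum amyloid gene, measured 1252 ± 430 CPM in Alb-cre livers and 322 ± 56.9 CPM in controls (log2 fold change 1.96 ± 0.27, adjusted p = 0.00282 by edgeR). Stat3, which carries interleukin-6 signals, rose too (log2 fold change 1.53 ± 0.26, adjusted p = 0.00492 by edgeR). The part of the acute phase response in the Cyp4 levels was not tested.

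**Figure D4:**
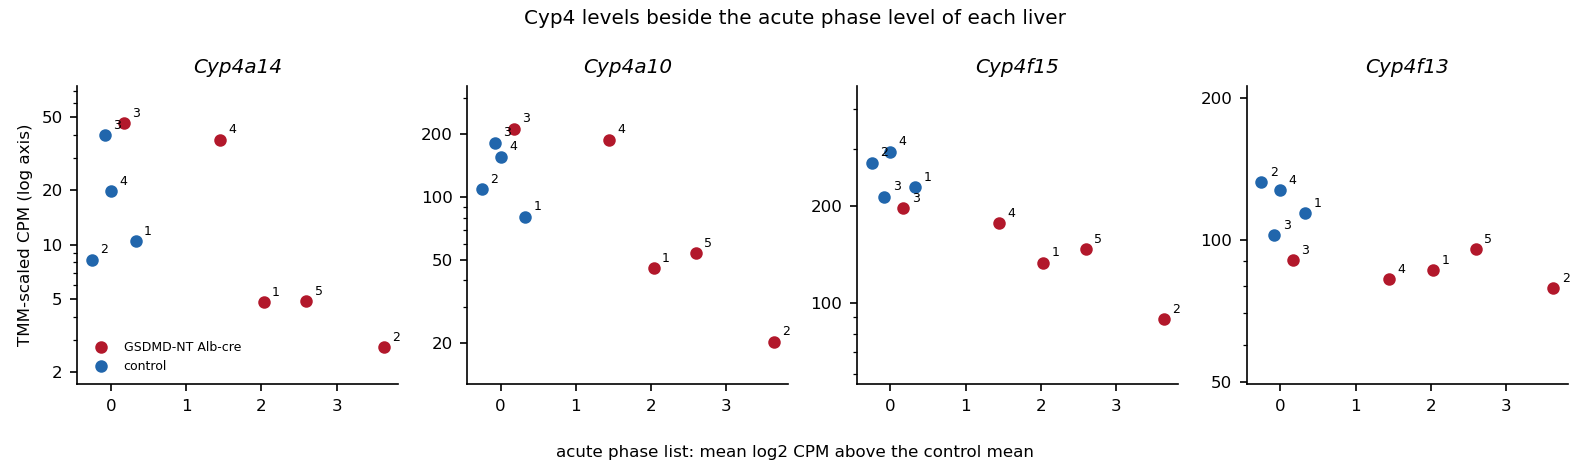
TMM-scaled CPM (log axis) of Cyp4a14, Cyp4a10, Cyp4f15 and Cyp4f13 against the mean log2 level of the acute phase list above the control mean, 1 point per liver with its replicate number. Alb-cre 2 has the highest acute phase level at 3.63 and the lowest value of each of the 4 genes. Alb-cre 5, at 2.60, has the highest Cyp4f13 of its group. Alb-cre 3 sits beside the controls on the horizontal axis.

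Cyp4a10 and Cyp4a14 also follow the hour of the day in mouse liver, and clock genes differed between the groups. Of 18 tested clock genes 2 were higher, Clock and Cry1, and 5 were lower, a share of 38.9% beside 18.3% of all tested genes. Among the lower ones was the repressor gene Nr1d1, at 41.0 ± 7.32 CPM in Alb-cre livers and 152 ± 50.8 CPM in controls (log2 fold change -1.89 ± 0.20, adjusted p = 9.51e-04 by edgeR). Per3 fell as well (log2 fold change -0.96 ± 0.12, adjusted p = 0.00179 by edgeR). Clock genes differed in their spread among the 5 Alb-cre livers. Nr1d1 lay between 32.6 and 50 CPM there, while Per1 ran from 19.3 to 164 CPM and Ciart from 6.44 to 34.1 CPM. Per1 and Ciart were not called, and both were lowest in Alb-cre 5. The number of higher clock genes was 1 without control 1, 2 or 3 or Alb-cre 5 and 0 without control 4. Collection times are not in the labels, and the part of the clock in the Cyp4 levels was not tested.

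The receptor that drives Cyp4a transcription was itself higher. Ppara measured 106, 64.2, 142, 109 and 152 CPM in Alb-cre livers 1 to 5, against 80.0, 56.0, 81.0 and 50.3 CPM in controls 1 to 4 (log2 fold change 0.78 ± 0.24, adjusted p = 0.0398 by edgeR). Only Alb-cre 2 fell into the range of controls. Among 14 receptors and cofactors of this pathway 4 were higher and 1 was lower, a share of 35.7% beside 18.3% of all tested genes. Among the higher ones were Ppara, its dimer partner Rxra, at 615 ± 70.5 CPM in Alb-cre livers and 432 ± 54.4 CPM in controls (log2 fold change 0.51 ± 0.14, adjusted p = 0.0275 by edgeR), and the coactivator gene Ncoa1 (log2 fold change 0.47 ± 0.14, adjusted p = 0.0326 by edgeR). The coactivator gene Ppargc1b was lower, at 5.17 ± 1.90 CPM in Alb-cre livers and 10.7 ± 0.789 CPM in controls (log2 fold change -1.04 ± 0.25, adjusted p = 0.018 by edgeR). Leaving out control 2, control 4 or any Alb-cre liver but the second ended the Ppara call (adjusted p = 0.0517 to 0.118). The number of higher genes was 0 without control 2, control 4 or Alb-cre 1, 1 without Alb-cre 5 and 2 without Alb-cre 3 or 4, and that of lower genes was 0 without control 4 and 2 without Alb-cre 1.

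PPARalpha targets other than Cyp4a showed few calls. Of 42 tested, 2 were higher and 1 was lower, a share of 7.14% beside 18.3% of all tested genes, with a median log2 fold change of 0.05 beside 0.01. The higher genes were Plin5, which coats lipid droplets, at 55.2 ± 12.7 CPM in Alb-cre livers and 35.5 ± 3.85 CPM in controls (log2 fold change 0.64 ± 0.16, adjusted p = 0.0221 by edgeR), and Cpt1a, which admits fatty acids to mitochondria (log2 fold change 0.64 ± 0.19, adjusted p = 0.0391 by edgeR). Fabp1, the liver fatty acid binding protein, was lower, at 1769 ± 670 CPM in Alb-cre livers and 3500 ± 777 CPM in controls (log2 fold change -0.98 ± 0.28, adjusted p = 0.0303 by edgeR). In the mean over the list, Alb-cre 1 to 5 stood at -0.09, -0.73, 0.41, -0.26 and 0.17 relative to the control mean on the log2 scale, which is not the order of Cyp4a14, since liver 4 was below every control and liver 5 was above the control mean, within the range of controls. Higher targets numbered 0 without control 2 or 4, 1 without Alb-cre 1 or 5, 4 without Alb-cre 4 and 5 without Alb-cre 2. Lower targets numbered 0 without control 2, control 4, Alb-cre 1 or Alb-cre 5, 2 without control 1 and 4 without Alb-cre 3.

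Among the enzymes that carry omega-hydroxy acids onward, 4 of 26 tested were lower and 0 were higher, a share of 15.4% beside 18.3% of all tested genes. Adh7 measured 28.0 ± 3.97 CPM in Alb-cre livers and 46.1 ± 8.25 CPM in controls (log2 fold change -0.72 ± 0.15, adjusted p = 0.00934 by edgeR), and Adh1 measured 1202 ± 154 CPM in Alb-cre livers and 1930 ± 250 CPM in controls (log2 fold change -0.68 ± 0.15, adjusted p = 0.0126 by edgeR). Both are alcohol dehydrogenases, and the other lower genes were Acsl5, a fatty acid activating enzyme, and Abcd2, a peroxisomal transporter. The number lower was 2 without control 2 or Alb-cre 1 and 7 without Alb-cre 3, and 1 was higher without Alb-cre 2 or 4.

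Of 9 electron donors of P450 enzymes 4 were lower and 0 were higher, a share of 44.4% beside 18.3% of all tested genes. Cyb5a, the cytochrome b5 that can pass electrons to Cyp4 enzymes, measured 503 ± 87.9 CPM in Alb-cre livers and 801 ± 85.0 CPM in controls (log2 fold change -0.67 ± 0.15, adjusted p = 0.0146 by edgeR), and Cyb5r1 was lower as well (log2 fold change -0.95 ± 0.15, adjusted p = 0.00413 by edgeR). The other 2, Fdx1 and Fdxr, serve mitochondrial P450 enzymes rather than Cyp4. Por, the main donor in the endoplasmic reticulum, measured 797, 618, 615, 547 and 705 CPM in Alb-cre livers 1 to 5, against 391, 622, 412 and 424 CPM in controls 1 to 4, and did not pass the test (log2 fold change 0.51 ± 0.17, adjusted p = 0.0585 by edgeR). Without control 2, 1 of these donors was higher. Por and Cyb5a were singled out after their values were seen.

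Other enzymes of arachidonic acid gave 4 lower and 0 higher of 17 tested, a share of 23.5% beside 18.3% of all tested genes. Ephx1, a microsomal epoxide hydrolase, measured 377 ± 119 CPM in Alb-cre livers and 736 ± 113 CPM in controls (log2 fold change -0.97 ± 0.22, adjusted p = 0.0147 by edgeR). Ptgds, a prostaglandin D synthase, was lower at a low level, with 1.62 ± 0.963 CPM in Alb-cre livers and 9.36 ± 4.48 CPM in controls (log2 fold change -2.51 ± 0.44, adjusted p = 0.00559 by edgeR). Pla2g6 and Hpgds were the other lower genes. The number lower was 2 without control 4 or Alb-cre 1.

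Male-biased liver genes, the class Cyp4a12a belongs to, gave 7 lower and 1 higher of 21 tested, a share of 38.1% beside 18.3% of all tested genes. Mup20, a male urinary protein gene, measured 1237 ± 111 CPM in Alb-cre livers and 2887 ± 941 CPM in controls (log2 fold change -1.22 ± 0.20, adjusted p = 0.00484 by edgeR), and Ntrk2 was lower (log2 fold change -2.75 ± 0.46, adjusted p = 0.00484 by edgeR). Egfr was the higher gene (log2 fold change 1.04 ± 0.18, adjusted p = 0.00506 by edgeR), and without Alb-cre 3 the number higher was 2. Cyp4a12a itself did not pass the test in any of the fits run. Female-biased liver genes gave 2 higher and 3 lower of 15 tested, a share of 33.3% beside 18.3% of all tested genes. Their median log2 fold change was -0.41. The higher ones were the P450 genes Cyp2c40, at 49.1 ± 3.27 CPM in Alb-cre livers and 5.55 ± 1.73 CPM in controls (log2 fold change 3.15 ± 0.20, adjusted p = 1.91e-05 by edgeR), and Cyp2c69 (log2 fold change 3.66 ± 0.34, adjusted p = 3.77e-04 by edgeR), close relatives between which reads may be split uncertainly. The lower ones were Ppp1r3g, Cyp2a4 and Abcd2, the last of which is also among the onward oxidation genes.

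Further Cyp4 genes added no call. Of 10 listed, 5 had a row and 3 passed the filter, with log2 fold changes of 0.43 ± 0.28 for Cyp4b1, 0.08 ± 0.26 for Cyp4f16 and -0.29 ± 0.19 for Cyp4f17 (0 called by edgeR in either direction, 0 at an unadjusted p under 0.05). Cyp4f18, a gene of myeloid cells, and Cyp4f39 were below the filter, Cyp4f18 with 1 to 7 counts per Alb-cre liver and 3 to 17 per control.

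**Figure D5:**
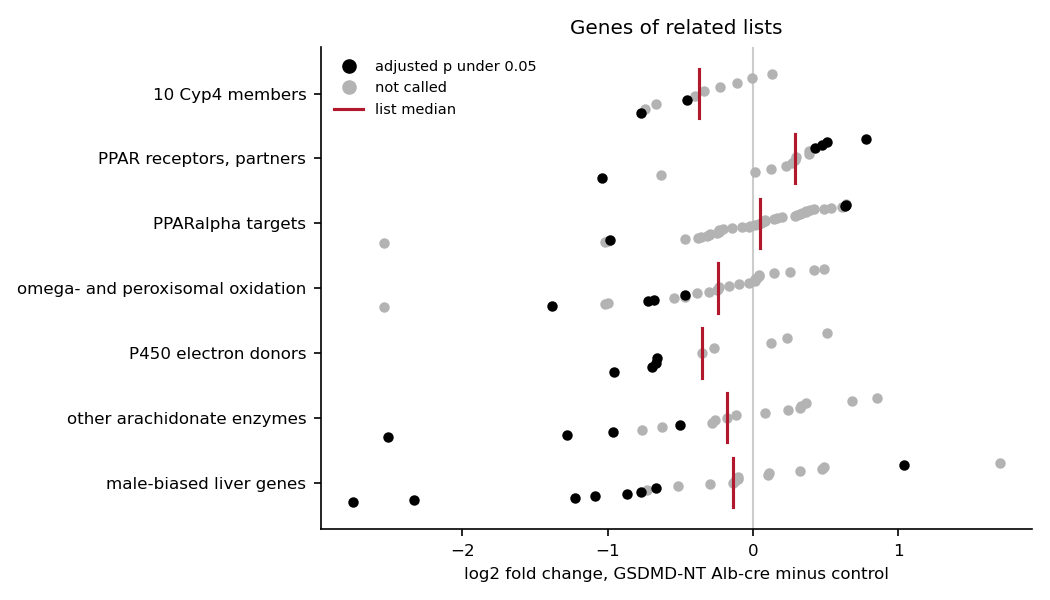
Log2 fold change of every tested gene in the 10 members and 6 related lists, with called genes in black, other genes in grey and the list median as a red line. PPARalpha targets cluster near 0, and the called electron donors and arachidonate enzymes all lie below 0.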

How the data were processed

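RNA of 9 mouse livers was read as strand-specific paired-end libraries after ribosomal RNA depletion, per the labels' protocols. Reads were handled with fastp 0.23.2 and HISAT2 2.1.0 on build GRCm39, per the submitters' processing notes, while the sources used here name no counting tool, strand setting or annotation. The authors deposited raw counts per gene, without normalization. Titles gave each liver its group and number.

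Counts were analysed in R 4.3.3 with edgeR 4.0.16 (filterByExpr, TMM, glmQLFit and glmQLFTest by group, on 14004 genes) and tested on simulated data. Ratios used a pseudocount of 0.5 counts and exact permutation in scipy 1.17.1. Transcript similarity and lengths came from GENCODE transcripts of another build (longest coding transcript), promoters from RefSeq, and figures from matplotlib 3.10.9. Alternatives used limma 3.58.1, DESeq2 1.42.0, other scaling and filters, replicate blocks and omitted livers.

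Members and lists were chosen with earlier results of these data known. Named were all members, Ppara and, per list, 2 called genes in each direction by smallest adjusted p (2 by highest mean where none was called), and the 5 genes most like Cyp4a14, Cyp4a12a and Cyp4f14. Genes named beyond this rule were chosen after their values were seen, namely Acsl5, Abcd2, Cyb5a, Fdxr, Por, Pla2g6, Hpgds, Cyp4f16, Cyp4f18, Cyp4f39 and Lrp2. So were Alb, Tat and Ttr among the hepatocyte markers and Per1 and Ciart among the clock genes. Some genes that this rule or these lists hold are not reported here. Livers within a group all differed beyond sampling noise (lowest chi-square per gene 15.3).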

Additional observations from a re-analysis of the deposited data

Results flagged for a closer look

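A single liver stood far from the rest of its group in 6 of 78 groups of values examined, one for each gene and group, and chance alone flags about 1 in 20. Cyp4f14 was lowest in Alb-cre 2 at 176.9 CPM, with the other 4 livers of that group between 245.7 and 268.8 CPM. Adh1 was highest in Alb-cre 3 at 1471 CPM, with the others between 1109 and 1193 CPM. Clock was lowest in Alb-cre 4 at 22.01 CPM, with the others between 23.82 and 24.5 CPM. Cyp4f17 was highest in Alb-cre 5 at 31.69 CPM, with the others between 19.37 and 22.63 CPM. Ppp1r3g was highest in Alb-cre 3 at 1.211 CPM, with the others between 0 and 0.1993 CPM. Cyp4b1 was highest in control 2 at 10.52 CPM, with the other 3 controls between 5.738 and 6.206 CPM.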

How the results depend on the processing

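Called members numbered 0 higher and 2 lower under RLE, upper-quartile and no scaling, DESeq2, limma-voom and both other filters. Over the 9 fits that each left out 1 liver, lower members ran from 0 to 3, and over all tested genes 567 to 1339 were higher and 625 to 1184 lower. Ranges of called list genes over these fits were 0 to 4 higher and 0 to 2 lower for PPAR receptors and cofactors, 0 to 5 higher and 0 to 4 lower for PPARalpha targets, 0 to 1 higher and 2 to 7 lower for onward oxidation, 0 to 1 higher for electron donors, 2 to 4 lower for arachidonate enzymes, 1 to 2 higher for male-biased genes, 2 to 3 higher and 2 to 4 lower for female-biased genes, 12 to 24 higher for acute phase genes and 0 to 2 higher for clock genes. Same-numbered livers deviated together little (correlations -0.015 to 0.134 by title number and -0.114 to 0.049 by description number), so the numbers were not taken as pairs. A replicate block on the title number gave 819 lower genes in all, 1 lower member (Cyp4f13 at adjusted p = 0.0457, with Cyp4f15 no longer called at 0.0515), 2 higher receptors and cofactors, 0 lower PPARalpha targets, 2 lower onward oxidation genes and 11 higher acute phase genes. A block on the description number gave 281 higher and 248 lower genes in all, 0 lower members, 0 higher receptors and cofactors, 0 higher PPARalpha targets, 1 lower onward oxidation gene, 1 lower electron donor, 2 lower arachidonate enzymes, 4 lower male-biased genes and 0 higher clock genes. Without controls 2 and 4 together, 29 genes were higher and 44 lower, with 0 lower members. That fit gave 0 higher and 0 lower receptors and cofactors and PPARalpha targets, 0 lower onward oxidation genes, electron donors and arachidonate enzymes, 0 higher and 2 lower male-biased genes, 0 lower female-biased genes, 0 higher acute phase genes, and 0 higher and 2 lower clock genes. DESeq2 gave 5 higher PPARalpha targets, 2 lower receptors and cofactors, 1 higher onward oxidation gene and 1 higher electron donor, limma-voom also 1 higher electron donor, and library totals alone 0 lower PPARalpha targets and no Ppara call (adjusted p = 0.0558). The log2 fold change of Cyp4a14 ran from -1.02 with the block on the description number to 0.60 without control 3 and passed the test in no fit run. The causes were not tested. With a pseudocount of 5, as with each liver left out, none of the 3 ratios passed the test. Depth did not limit the members, each with at least 53 counts in every liver except Cyp4a14 in Alb-cre 2.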
